A study of Rattus norvegicus with 18 samples.

Results

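The 10 astrocyte genes Aqp4, Gfap, Gja1, Aldh1l1, Ndrg2, Nkain4, Agt, Fgfr3, S100b and Sox9 were followed in RNA of the VTA (ventral tegmental area), which lies in the midbrain and contains reward-related dopamine neurons. They are 10 of the 38445 genes in the count tables, were matched by rat gene symbol, and all 10 passed the filter on low counts that kept 17637 genes. The set was chosen by levels and group differences measured in these same libraries, those of Ndrg2 and Nkain4 above all. The levels and differences of the 10 genes between groups are therefore given as a description. Tests of these differences, given below beside the share of all genes, used the values that chose the set. The counts of the 10 genes past a threshold therefore support nothing. The 18 animals were adult wild-type males of the Sprague-Dawley strain, 6 in each of 3 groups. Withdrawal rats (numbered 13 to 18) were taken 24 h after a Lieber-DeCarli liquid diet with 9% v/v ethanol, given for 15 or 16 days, had ended. Chronic ethanol rats (7 to 12) had the same diet and were taken at 0 h of withdrawal, and control rats (1 to 6) had the diet without ethanol. Each library came from 1 rat, so the spread between libraries includes the spread between animals.

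Astrocytes are glial cells that take up glutamate and potassium released by neurons, move water at the blood vessels, share small molecules through gap junctions and store energy. Of the genes followed here, Aqp4 encodes the water channel of the astrocyte endfeet, Gfap their intermediate filament, Gja1 their main gap junction protein and Aldh1l1 a folate enzyme. Ndrg2 encodes a cytoplasmic protein of the N-myc downstream regulated family that is abundant in astrocytes, and Nkain4 a membrane protein of a family that binds the sodium-potassium pump. Agt encodes angiotensinogen, the secreted precursor of angiotensin, Fgfr3 a receptor for fibroblast growth factors, S100b a calcium-binding protein that oligodendrocytes also make, and Sox9 a transcription factor of astrocytes.

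Libraries held 29.6 to 45.1 M counted fragments, and every one of the 10 genes had at least 364 counts in every library. Levels are given as CPM, counts relative to the library total after scaling by TMM factors. Withdrawal rat 13 stood apart. Its library held 16373 CPM of pineal marker genes against at most 10.4 CPM in any other, 437 CPM of choroid plexus markers against at most 23.5 CPM, and 16896 CPM of oligodendrocyte markers against at least 30370.1 CPM. Markers of the hindbrain summed to 61.5 CPM in control rat 5 and 54.2 CPM in chronic ethanol rat 8 and to at most 4.95 CPM elsewhere, with 2 of the 6 at 0 in every library, and Th, the enzyme of dopamine synthesis, was lowest in withdrawal rat 17, at 17.6 CPM. Values without rat 13 therefore stand beside the withdrawal log2 changes of the 10 genes. Log2 changes of single genes outside the 10 are those of all 18 rats. The first sequence index of the libraries was shared by rats 1 to 8, by rats 9 to 16 and by rats 17 and 18, so no index held both withdrawal and control libraries, and a fit with the index as a term compares that pair through the chronic ethanol libraries.

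Promoter sequence was at hand for 7 of the 10 genes, as the 250 bases before an annotated start in the RefSeq annotation of the GRCr8 assembly, which gave 9 promoters. Those of Gfap and Ndrg2 are shown because, as described below, Gfap had the widest spread between rats of the 10 genes, and Ndrg2 did not overlap between withdrawal and chronic ethanol rats. Capitals mark the GC box GGGCGG, read on either strand, so that CCGCCC is the same box on the opposite strand. The Gfap promoter lies at chr10:88361662-88361911 on the minus strand, and Ndrg2 has 2 starts, with promoters at chr15:27083121-27083370 and chr15:27082503-27082752 on the minus strand.
Gfap: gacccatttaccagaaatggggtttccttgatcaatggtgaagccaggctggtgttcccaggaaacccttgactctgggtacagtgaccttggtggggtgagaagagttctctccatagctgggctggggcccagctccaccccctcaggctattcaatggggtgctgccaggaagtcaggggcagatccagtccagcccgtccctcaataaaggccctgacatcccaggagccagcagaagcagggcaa
Ndrg2, upstream start: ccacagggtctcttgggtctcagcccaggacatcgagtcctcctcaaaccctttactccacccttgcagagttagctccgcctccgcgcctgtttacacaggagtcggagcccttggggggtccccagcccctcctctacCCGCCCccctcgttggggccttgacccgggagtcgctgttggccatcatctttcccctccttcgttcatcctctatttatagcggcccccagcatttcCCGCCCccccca
Ndrg2, downstream start: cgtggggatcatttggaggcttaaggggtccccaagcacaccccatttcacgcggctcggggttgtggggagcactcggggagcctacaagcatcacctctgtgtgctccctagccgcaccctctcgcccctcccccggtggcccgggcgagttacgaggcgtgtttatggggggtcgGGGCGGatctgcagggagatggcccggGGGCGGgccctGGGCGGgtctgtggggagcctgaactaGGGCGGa
The 2 Ndrg2 promoters held 12 and 18 CpG dinucleotides and 2 and 4 GC boxes, and the Gfap promoter held 1 CpG and 0 GC boxes. The median promoter of the 33469 in the table held 5 CpG. A GC box was found in 5 of the 9 promoters and in 30.5% of all promoters in the table. The nuclear factor I half-site TTGGC, on either strand, was found in 3 of the 9 and in 40.3% of all, and the STAT motif TTCNNNGAA in 0 of the 9 and in 7.67% of all. These are matches of letters within 250 bases and show no binding. Nkain4, Agt and Sox9 are named only.

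Set per length as TPM (computed here from counts and exonic length), S100b was the highest of the 10, at a mean of 2865 ± 430 TPM over the 18 rats (SD), followed by Ndrg2 at 1967 ± 380.1 TPM. Gfap averaged 908 ± 588 TPM, Aqp4 642 ± 217 TPM, Agt 532 ± 85.5 TPM and Gja1 367 ± 44.9 TPM. Fgfr3 came at 129.8 ± 18.9 TPM, and Aldh1l1, Nkain4 and Sox9 at 40.0 ± 13.5, 23.3 ± 5.90 and 16.3 ± 3.49 TPM. S100b exceeded Ndrg2 in 18 of 18 rats, Ndrg2 exceeded Gfap in 17, Aldh1l1 exceeded Nkain4 in 17, and Agt exceeded Gja1, Gja1 Fgfr3, and Fgfr3 Aldh1l1, in 18. The neighbours that changed places in more than 1 rat were Gfap and Aqp4, with Gfap higher in 13 of 18 rats, Aqp4 and Agt, with Aqp4 higher in 13, and Nkain4 and Sox9, with Nkain4 higher in 14. Together the 10 genes took 0.354% of the counts in withdrawal rat 13 and 1.00% in chronic ethanol rat 10, the lowest and highest of the 18.

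The 10 genes differed in how much rats of 1 group varied. Gfap ranged over 12.4-fold, from 174 CPM in chronic ethanol rat 7 to 2160.4 CPM in control rat 5, and its SD within groups was 1.07 on the log2 CPM scale, larger than that of 99.3% of the 10534 tested genes that averaged 10 CPM or more. Aqp4 ranged over 4.34-fold and Aldh1l1 over 3.52-fold, with within-group SDs of 0.53 and 0.52, larger than those of at least 94.8% of these genes. The other 7 genes ranged over at most 3.33-fold. Their within-group SDs were 0.15 for Gja1, 0.17 for Fgfr3, 0.18 for Ndrg2, 0.19 for Agt, 0.23 for Nkain4 and 0.26 for S100b and Sox9, against a median of 0.17 for genes of at least 10 CPM. Rat 13 was the lowest of the 18 rats for 7 of the 10 genes, and leaving it out lowered the within-group SD of S100b to 0.15, of Ndrg2 to 0.12 and of Fgfr3 to 0.10, while that of Gfap was 1.05. Chronic ethanol rat 10 was the highest for 5 genes.

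**Figure D1:**
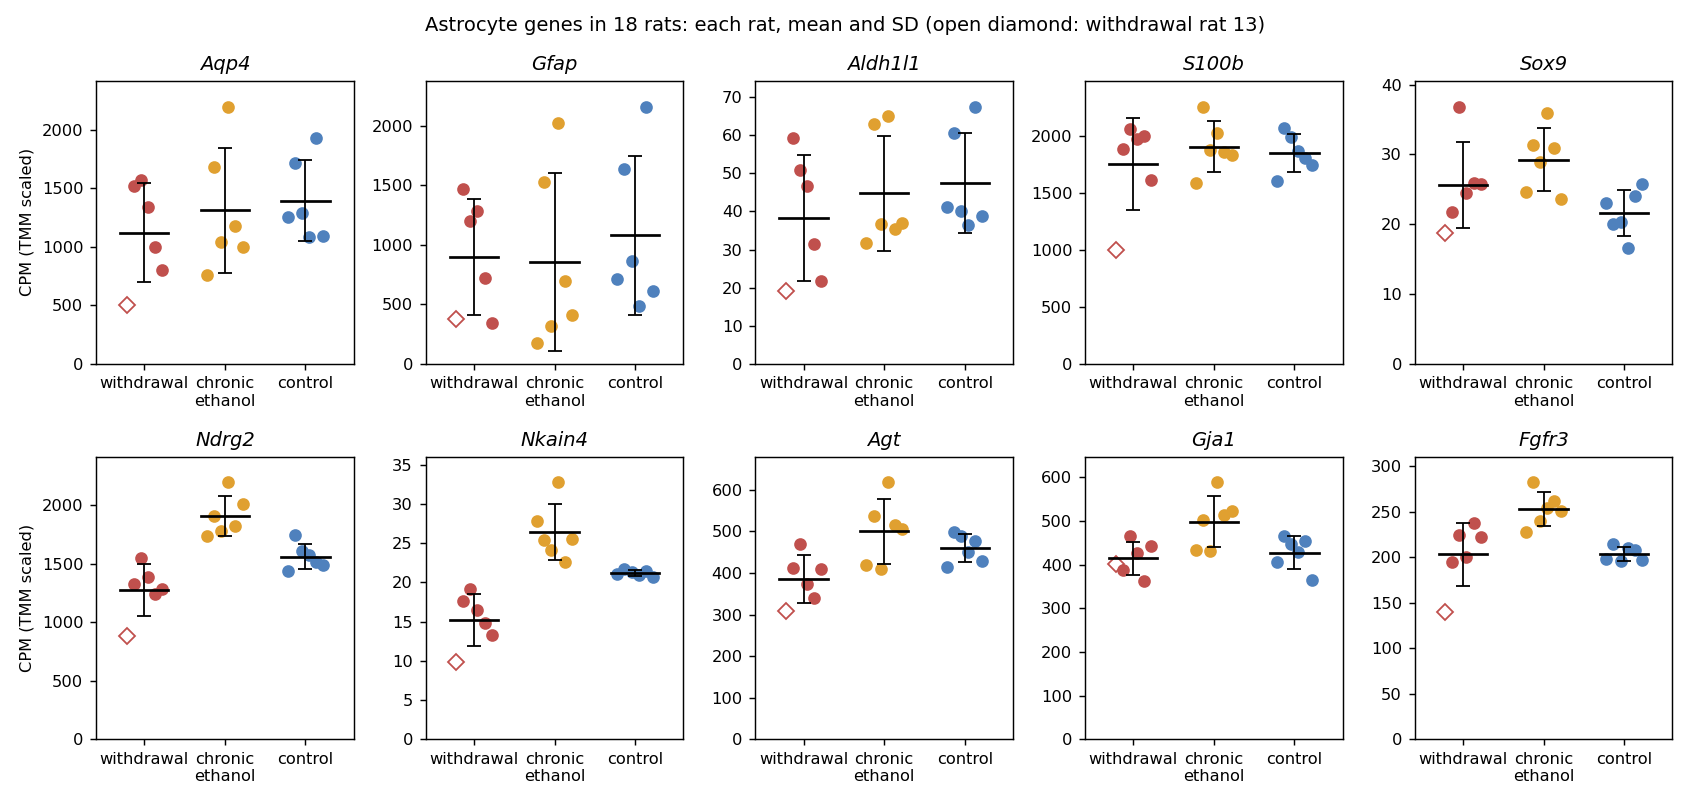
CPM (scaled by TMM factors) of each of the 10 genes in every rat, by group from withdrawal through chronic ethanol to control, with the group mean (line) and SD (bars) and withdrawal rat 13 as an open diamond. Gfap, Aqp4 and Aldh1l1 scatter widely within each group, and the Ndrg2 and Nkain4 points of withdrawal rats all lie below those of chronic ethanol rats.

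Gfap had lowest, median and highest levels of 344, 960.4 and 1466 CPM in withdrawal rats, 174, 554 and 2022 CPM in chronic ethanol rats and 487, 788 and 2160.4 CPM in control rats. Aqp4 had 506, 1167 and 1569 CPM in withdrawal rats, 759.5, 1111 and 2199 CPM in chronic ethanol rats and 1084, 1272 and 1934 CPM in control rats, given likewise. Aldh1l1 had 19.2, 39.0 and 59.4 CPM in withdrawal rats, 31.6, 36.8 and 65.1 CPM in chronic ethanol rats and 36.5, 40.6 and 67.5 CPM in control rats. For all 3 genes each group had both high and low rats, and the groups overlapped in every comparison. Control rats 2 and 5, chronic ethanol rats 8 and 10 and withdrawal rats 14, 15 and 16 were the high ones, with Gfap between 1200.3 and 2160.4 CPM, and Gfap in the other 11 rats was at most 864 CPM. Of these high rats, control rat 5 and chronic ethanol rat 8 were also the 2 with hindbrain transcripts. Markers of Bergmann glia and cerebellum summed to 525.5 CPM in control rat 5, 446.6 CPM in chronic ethanol rat 8 and 1097 CPM in withdrawal rat 13. In every other rat they summed to at most 86.8 CPM, the value of control rat 3. The part of either set of transcripts in the levels was not tested. The edgeR log2 changes of Gfap were 0.07 ± 0.56 (SE) for withdrawal against chronic ethanol, -0.26 ± 0.56 for withdrawal against control and -0.33 ± 0.56 for chronic ethanol against control, each smaller than its error. Without rat 13 the first of these was 0.23 and the second -0.10. Those of Aqp4 were -0.23 ± 0.28, -0.32 ± 0.28 and -0.09 ± 0.28 in the same order, and those of Aldh1l1 -0.23 ± 0.28, -0.31 ± 0.28 and -0.08 ± 0.28. Without rat 13, withdrawal against chronic ethanol came to -0.08 for Aqp4 and -0.09 for Aldh1l1, and withdrawal against control to -0.17 and -0.17.

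Levels of these 3 genes were correlated from rat to rat. Over the 18 rats the log2 CPM of Aqp4 and Gfap had a Pearson r of 0.878 and a Spearman rho of 0.924, those of Aqp4 and Aldh1l1 0.955 and 0.957, and those of Gfap and Aldh1l1 0.836 and 0.872. By permutation (two-sided, 100000 resamples, adjusted over the 45 pairs of the 10 genes) the p of Pearson's r was 0.000112, 0.000112 and 0.00015, and that of Spearman's rho 0.000112 for each, which rest on the smallest p that the permutations can give except for Pearson's r of Gfap and Aldh1l1. Without the 2 rats farthest from the median of the first gene, r was 0.944, 0.940 and 0.862, and without rat 13 it was 0.942, 0.940 and 0.859. Within rats 1 to 8, which share a first index, r was 0.993, 0.957 and 0.932, and within rats 9 to 16 it was 0.830, 0.973 and 0.823. Within groups, Aqp4 and Gfap had r of 0.918 in withdrawal, 0.977 in chronic ethanol and 0.991 in control rats (exact permutation p = 0.0139, 0.00278 and 0.00139, n = 6 each). After adjustment over the 135 tests of pairs within groups none of the 135 was under 0.05. All values of a rat come from 1 library, so depth and dissection are shared by the genes compared.

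Ndrg2 was set beside Gfap, Nkain4 and Agt in the same way. Gfap and Ndrg2 had r of 0.193 and rho of 0.133 over the 18 rats (permutation p adjusted over the 45 pairs = 0.466 and 0.672). Since withdrawal and chronic ethanol rats lie apart for Ndrg2, its relations are also given within groups. With Gfap, r was 0.680 in withdrawal, 0.739 in chronic ethanol and 0.352 in control rats (exact permutation p = 0.0972, 0.0944 and 0.494, n = 6 each), and with group means removed 0.560 over all rats and 0.580 without rat 13. With Nkain4, r was 0.945 in withdrawal, 0.639 in chronic ethanol and 0.640 in control rats, with rho of 0.886, 0.371 and 0.600 (exact permutation p of r = 0.00694, 0.172 and 0.167, n = 6 each). With group means removed, Ndrg2 and Nkain4 had r of 0.850 over all rats and 0.640 without rat 13. Ndrg2 and Agt had r of 0.863, 0.871 and 0.832 within withdrawal, chronic ethanol and control rats (exact permutation p = 0.0181, 0.0278 and 0.0333, n = 6 each), and with group means removed 0.808 over all rats and 0.823 without rat 13. Over the 45 pairs the median r was 0.60 with group means removed, and 0.50 without rat 13.

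**Figure D2:**
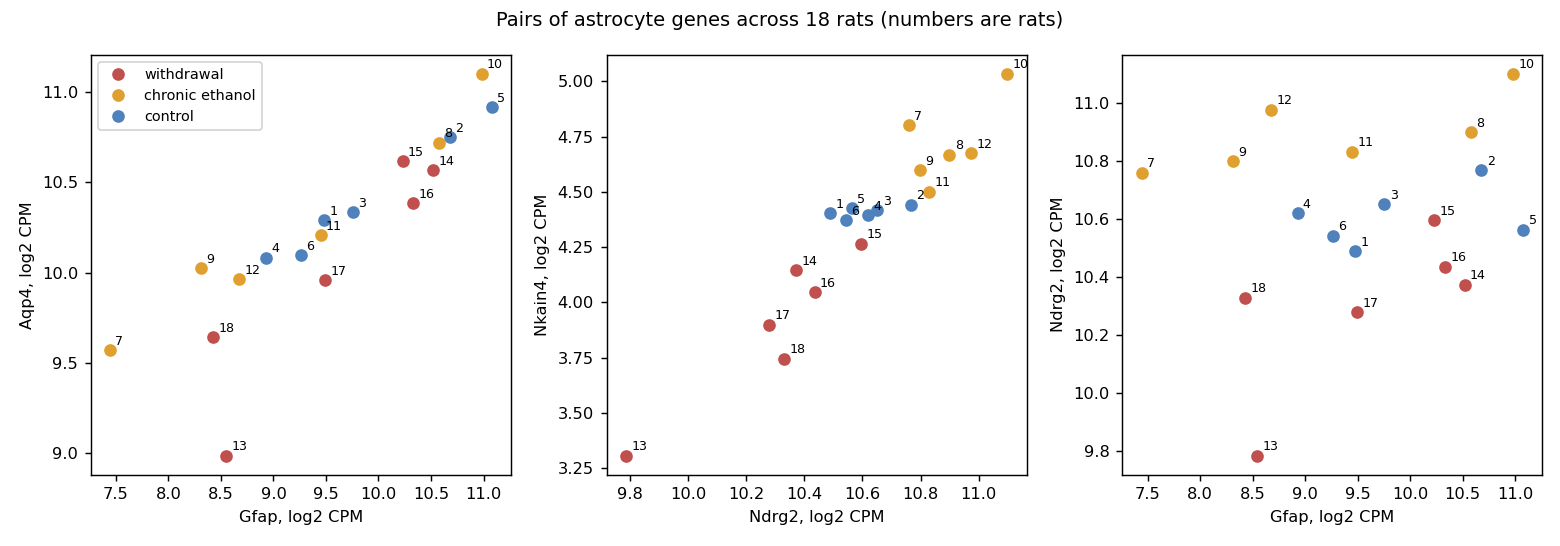
Log2 CPM of pairs of genes in the 18 rats (points, coloured by group, numbered by rat): Gfap and Aqp4, Ndrg2 and Nkain4, and Gfap and Ndrg2. Gfap and Aqp4 lie along 1 line with groups mixed, Ndrg2 and Nkain4 along 1 line ordered by group with rat 13 at its low end, and Gfap and Ndrg2 have an r of 0.193 over all rats, with withdrawal and chronic ethanol rats apart on the Ndrg2 axis, and 0.560 with group means removed.

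**Figure D3:**
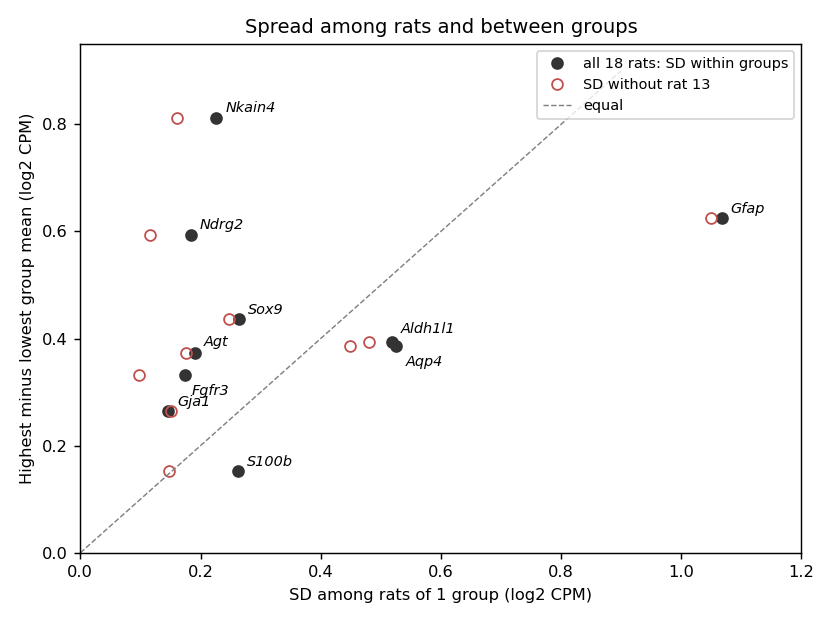
Range of the 3 group means (highest minus lowest, log2 CPM) against the SD among rats of 1 group (log2 CPM) for each of the 10 genes, with the SD of all rats filled and that without rat 13 open. The range of group means includes rat 13 for both points. With all rats, Nkain4 and Ndrg2 lie far above the line of equality, at group ranges of 0.81 and 0.59 against SDs of 0.23 and 0.18. The filled points of Gfap, Aqp4, Aldh1l1 and S100b lie below it. The open point of S100b, at an SD of 0.148 against a range of 0.152, lies just above it. Without rat 13, withdrawal minus chronic ethanol was -0.69 for Nkain4 and -0.49 for Ndrg2 in mean log2 CPM.

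Ndrg2 and Nkain4 were lowest in withdrawal and highest in chronic ethanol. Ndrg2 had lowest, median and highest levels of 882, 1306 and 1547 CPM in withdrawal rats, 1733, 1865 and 2194 CPM in chronic ethanol rats and 1437, 1543 and 1742 CPM in control rats. Nkain4 had 9.84, 15.7 and 19.2 CPM in withdrawal rats, 22.6, 25.4 and 32.7 CPM in chronic ethanol rats and 20.7, 21.2 and 21.7 CPM in control rats. All 6 withdrawal rats lay below every chronic ethanol rat for both genes, and for Nkain4 all 6 also lay below every control rat while all 6 chronic ethanol rats lay above every control rat. For Ndrg2, 5 of 6 withdrawal rats lay below every control rat and 5 of 6 chronic ethanol rats above every control rat. The 6 control rats were within 20.7 to 21.7 CPM for Nkain4, the narrowest group of the gene. Means were 1278 ± 221, 1908 ± 172 and 1561 ± 108 CPM for Ndrg2 in withdrawal, chronic ethanol and control rats (SD, n = 6 each), and 15.2 ± 3.34, 26.4 ± 3.57 and 21.2 ± 0.367 CPM for Nkain4. Without rat 13 the withdrawal means were 1357 ± 119 CPM for Ndrg2 and 16.3 ± 2.29 CPM for Nkain4 (SD, n = 5). Withdrawal against chronic ethanol gave an edgeR log2 change of -0.58 ± 0.10 (SE) for Ndrg2 and -0.79 ± 0.13 for Nkain4, and -0.49 and -0.69 without rat 13. Within the index that withdrawal rats 13 to 16 and chronic ethanol rats 9 to 12 share, the difference in mean log2 CPM was -0.63 for Ndrg2 and -0.76 for Nkain4, and -0.46 and -0.55 without rat 13. Withdrawal against control gave -0.29 ± 0.10 for Ndrg2 and -0.48 ± 0.12 for Nkain4, and -0.20 and -0.38 without rat 13. Chronic ethanol against control gave 0.29 ± 0.10 for Ndrg2 and 0.31 ± 0.12 for Nkain4. With the first index as a term, withdrawal against control was -0.38 ± 0.20 for Ndrg2 and -0.40 ± 0.24 for Nkain4 (SE). In the index shared by chronic ethanol rats 7 and 8 and the controls, the difference of chronic ethanol and control was 0.22 and 0.33 in mean log2 CPM. In bulk RNA, fewer astrocytes and less RNA of a gene per astrocyte cannot be told apart.

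Agt, Gja1 and Fgfr3 also had lower values in withdrawal than in chronic ethanol, with smaller differences than Ndrg2 and Nkain4 and with overlap. Agt had lowest, median and highest levels of 309, 392 and 469 CPM in withdrawal rats, 409, 509.9 and 617 CPM in chronic ethanol rats and 415, 464 and 498 CPM in control rats. Gja1 had 361, 414 and 465 CPM in withdrawal rats, 430.3, 508 and 588 CPM in chronic ethanol rats and 364, 438 and 466 CPM in control rats. Fgfr3 had 139.7, 211 and 238 CPM in withdrawal rats, 228, 252 and 282 CPM in chronic ethanol rats and 196, 203 and 214 CPM in control rats. All 6 chronic ethanol rats were above every control rat for Fgfr3, and 5 of 6 withdrawal rats were below every chronic ethanol rat. The withdrawal rats of Agt were below every control rat in 5 of 6, and the withdrawal rats of Gja1 in 1 of 6. Withdrawal against chronic ethanol gave edgeR log2 changes of -0.37 ± 0.11 for Agt, -0.27 ± 0.08 for Gja1 and -0.32 ± 0.09 for Fgfr3 (SE), and -0.32, -0.26 and -0.23 without rat 13. Withdrawal against control gave -0.25 ± 0.11 for Agt, -0.05 ± 0.08 for Gja1 and -0.01 ± 0.09 for Fgfr3, and -0.20, -0.04 and 0.08 without rat 13, where the sign of Fgfr3 turned. Chronic ethanol against control gave 0.12 ± 0.11 for Agt, 0.22 ± 0.08 for Gja1 and 0.31 ± 0.09 for Fgfr3. Within the index of rats 9 to 16 the difference of withdrawal and chronic ethanol was -0.39 for Agt, -0.28 for Gja1 and -0.43 for Fgfr3 in mean log2 CPM. Without rat 13 these differences were -0.28, -0.26 and -0.29.

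S100b and Sox9 overlapped between groups in every comparison. S100b had lowest, median and highest levels of 993, 1926 and 2061 CPM in withdrawal rats, 1583, 1869 and 2255 CPM in chronic ethanol rats and 1607, 1838 and 2072 CPM in control rats. Its log2 changes were -0.12 ± 0.14 for withdrawal against chronic ethanol, -0.08 ± 0.14 for withdrawal against control and 0.04 ± 0.14 for chronic ethanol against control, each smaller than its SE. Rat 13, at 993 CPM, was the lowest, and without it the first of these was 0.00073 and the second 0.04. Oligodendrocyte markers, whose cells also make S100b, were lowest in the same rat. So were the sums of markers of oligodendrocyte precursors (256 CPM), microglia (236 CPM) and endothelium and pericytes (457 CPM). The part of any of these cells in the level of S100b was not tested. Sox9 was 18.7 to 36.8 CPM in withdrawal rats, 23.7 to 35.9 CPM in chronic ethanol rats and 16.6 to 25.7 CPM in control rats. With all rats it was the 1 gene of the 10 with a positive log2 change in withdrawal against control, at 0.24 ± 0.15, and it had 0.44 ± 0.15 in chronic ethanol against control and -0.19 ± 0.15 in withdrawal against chronic ethanol. Without rat 13 withdrawal against control was 0.32 and withdrawal against chronic ethanol -0.12. The groups of Sox9 overlapped in all 3 comparisons, with 4 of 6 chronic ethanol rats above every control rat.

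**Figure D4:**
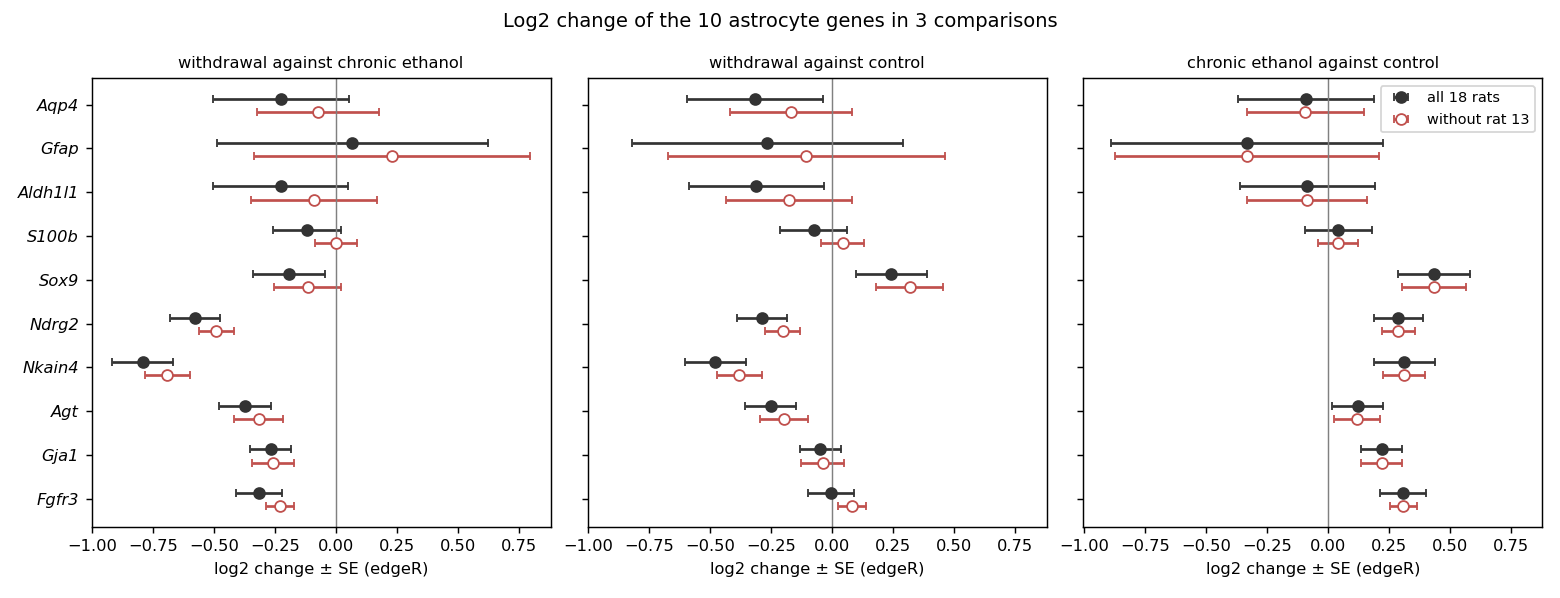
Log2 change with its SE (edgeR) of each of the 10 genes for withdrawal against chronic ethanol, withdrawal against control and chronic ethanol against control, with all 18 rats (filled) and without rat 13 (open). Nkain4 and Ndrg2 lie farthest from 0 in withdrawal against chronic ethanol, at -0.79 and -0.58, and the bars of Gfap are the widest.

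By edgeR's quasi-likelihood test, 0 of the 10 genes passed a Benjamini-Hochberg adjusted p of 0.05 in any of the 3 comparisons, where the share of all genes called was 0% in each. At an unadjusted p under 0.05, 5 of the 10 were lower in withdrawal against chronic ethanol (5.95% of all genes were, and 15.3% passed in either direction), 3 were lower in withdrawal against control (3.58%, and 9.82% in either direction), and 5 were higher in chronic ethanol against control (3.1%, and 5.84% in either direction). By DESeq2, 3 of the 10 (Nkain4, Ndrg2 and Agt) were called in withdrawal against chronic ethanol, where 1.79% of genes were, and 0 in the other comparisons, where 0.298% were for withdrawal and 0.269% for chronic ethanol against control. Limma-voom, fits of only the 2 groups compared and a fit with the first index as a term called 0 of the 10 in each comparison, and 0.0113%, 0.0116% and 0.0113% of genes in chronic ethanol against control. Without rat 13, edgeR called Ndrg2 and Nkain4 in withdrawal against chronic ethanol, where 0.124% of genes were called. Of the 10, 2 did not overlap between withdrawal and chronic ethanol, both lower (0.544% of genes, and 1.36% in either direction), 1 between withdrawal and control, lower (0.38%, and 0.607% in either direction), and 2 between chronic ethanol and control, both higher (0.522%, and 0.93% in either direction, of which 0.408% lower). The median log2 change of the 10 was -0.25 in withdrawal against chronic ethanol, -0.26 in withdrawal against control and 0.17 in chronic ethanol against control, beside medians over all tested genes of 0.02, 0.01 and -0.0039. The median in withdrawal against control was -0.14 without rat 13, -0.13 without control rat 5 and 0.018 without rats 5, 8, 13 and 17. These comparisons share groups, so their values are not separate results.

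Of the other Ndrg genes, Ndrg1, which is abundant in oligodendrocytes, had the opposite direction to Ndrg2 in both withdrawal comparisons, while its log2 change in chronic ethanol against control was 0.08 ± 0.08 (SE). Ndrg1 had 427, 459 and 511 CPM as lowest, median and highest in withdrawal rats, 316, 336 and 439 CPM in chronic ethanol rats and 279, 339.9 and 371 CPM in control rats. All withdrawal rats lay above every control rat, and they overlapped chronic ethanol rat 8, at 439 CPM. Its log2 change was 0.37 ± 0.08 (SE) against chronic ethanol and 0.46 ± 0.08 against control, with edgeR adjusted p of 0.0874 and 0.193, neither of which passed. DESeq2 called Ndrg1 in both. Oligodendrocyte markers summed to 16896 to 44368 CPM in withdrawal, 30378 to 41853 CPM in chronic ethanol and 30370.1 to 41659 CPM in control rats. Their medians were 39158, 32606 and 37828 CPM in that order. The 16896 CPM was that of rat 13, and the other withdrawal rats had 37458 to 44368 CPM. Ndrg1 was 427 CPM in rat 13. The part of oligodendrocytes in the level of Ndrg1 was not tested. Ndrg3, with 276, 286 and 291 CPM on average in withdrawal, chronic ethanol and control rats, and Ndrg4, with 1776, 2104 and 2199.7 CPM, passed no edgeR comparison (adjusted p of 0.673 and 0.324 for withdrawal against chronic ethanol). Of the Nkain genes, Nkain2 averaged 117, 123 and 122 CPM in the 3 groups in that order, Nkain3 1.38, 1.41 and 1.31 CPM and Nkain1 23.4, 39.7 and 39.6 CPM. Nkain1 was 105 CPM in chronic ethanol rat 8 and 109 CPM in control rat 5, the rats with hindbrain transcripts, and at most 31.3 CPM elsewhere. None of the 3 passed the edgeR test for withdrawal against chronic ethanol (adjusted p = 0.413 for Nkain1, 0.85 for Nkain2 and 0.974 for Nkain3).

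Among 15028 tested genes that averaged 1 CPM or more, the 5 whose log2 CPM was most like that of Ndrg2 over the 18 rats, with group means removed, were Arsb (r = 0.937), Oxct1 (0.930), Suclg2 (0.930), Sparcl1 (0.930) and Soat1 (0.928). Those most like Nkain4 were Acot13 (r = 0.920), Oxct1 (0.912), Garem2 (0.908), Slc25a18 (0.901) and Fndc5 (0.900). Oxct1 encodes the enzyme that lets cells burn ketone bodies, Sparcl1 a secreted matrix protein of astrocytes and Slc25a18 a mitochondrial glutamate carrier. Without rat 13 these r were 0.803 to 0.856 for the genes most like Ndrg2 and 0.762 to 0.829 for those most like Nkain4. Of the 10 genes, S100b had rank 63 (r = 0.871) and Nkain4 rank 107 (r = 0.850) in likeness to Ndrg2, and Gfap, Gja1 and Sox9 had ranks 1984, 2091 and 2454 (r = 0.560, 0.547 and 0.503). This order changed without rat 13, where r was 0.620 for S100b, 0.640 for Nkain4, 0.580 for Gfap, 0.801 for Gja1 and 0.272 for Sox9.

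Further lists held the genes that work with single ones of the 10. Angiotensin genes, the partners of Agt, had 9 measured members with 0 called by edgeR in any comparison. Mas1, a receptor for an angiotensin fragment, was 0.135 to 0.485 CPM in withdrawal, 0.118 to 0.62 CPM in chronic ethanol and 0.32 to 3.97 CPM in control rats. The 3.97 CPM was that of control rat 3. Mas1 in the other control rats was 0.32 to 0.968 CPM, which overlapped the withdrawal and chronic ethanol rats. Control rat 3 also had the largest sum of meningeal fibroblast markers, 622 CPM, followed by withdrawal rat 13 with 208 CPM. The part of such tissue in the level of Mas1 was not tested. Of 16 fibroblast growth factor genes, the ligands, receptors and feedback inhibitors around Fgfr3, 0 were called by edgeR. Spry1, a feedback inhibitor of receptor tyrosine kinases, was 3.84 to 4.81 CPM in withdrawal and 1.98 to 3.56 CPM in control rats, with a log2 change of 0.64 ± 0.14 (edgeR adjusted p = 0.302), and its relative Spry2 0.33 ± 0.08 (adjusted p = 0.302). DESeq2 called both in that comparison. Of the 8 connexins and pannexins measured beside Gja1, 0 were called, and Panx1, a channel of the plasma membrane, had a log2 change of 0.37 ± 0.14 in chronic ethanol against control (edgeR adjusted p = 0.796). Of 10 further aquaporins and members of the dystrophin complex, which anchors Aqp4 at the endfeet, 0 were called. Aqp1, the water channel of the choroid plexus, was 56.8 CPM in withdrawal rat 13, and the next highest rat, control rat 3, had 2.03 CPM.

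Astrocyte genes outside the 10 were taken from 5 lists of 134 genes, of which 132 were in the files and 129 were tested. By edgeR 0 of the 129 were called in any comparison, and by limma-voom 0. At an unadjusted p under 0.05, 12 were higher and 25 lower in withdrawal against chronic ethanol (9.38% and 5.95% of all genes), 12 higher and 5 lower in withdrawal against control (6.24% and 3.58%), and 15 higher and 2 lower in chronic ethanol against control (3.1% and 2.74%). The lists differed. Genes of astrocyte metabolism lay lower in withdrawal than in chronic ethanol in 23 of 27, the median log2 change being -0.24, and higher in chronic ethanol than in control in 22 of 27, with a median of 0.18. Entpd2, an enzyme that breaks down extracellular ATP, was 24.2 ± 3.86 CPM in withdrawal and 33.9 ± 6.91 CPM in chronic ethanol rats (SD, n = 6 each), a log2 change of -0.49 ± 0.12 (edgeR adjusted p = 0.115). Mt3, a metal-binding metallothionein of brain, had -0.45 ± 0.12 (edgeR adjusted p = 0.124). Rat 13 was the lowest withdrawal rat for both, at 18.2 CPM for Entpd2 and 101 CPM for Mt3. The other withdrawal rats had 22.7 to 29.5 CPM of Entpd2 and 151 to 189 CPM of Mt3. Prodh, the enzyme that begins proline breakdown, was 154 ± 31.7 CPM in chronic ethanol and 108 ± 11.5 CPM in control rats, a log2 change of 0.51 ± 0.13 (edgeR adjusted p = 0.322). Transporters and channels had medians of -0.18 in withdrawal against chronic ethanol and 0.17 in chronic ethanol against control, and Slc25a18 had -0.54 ± 0.17 (edgeR adjusted p = 0.186). The 33 genes of receptors and secreted proteins had medians of -0.09 and 0.12 in these comparisons, and the 18 transcription factors 0.0070 and 0.15. Without rat 13 the medians in withdrawal against chronic ethanol were -0.20 for metabolism, -0.12 for transporters and channels, -0.06 for receptors and secreted proteins and -0.02 for transcription factors, whose sign turned.

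Genes induced in reactive astrocytes had the other direction: 26 of 33 lay higher in withdrawal than in chronic ethanol, the median log2 change being 0.49, and 23 of 33 lower in chronic ethanol than in control, with a median of -0.22. The first median was 0.20 without rat 13. In withdrawal against control the median was 0.26 with all rats and -0.02 without rat 13, so its sign rested on that rat. Gbp2, a guanylate-binding protein induced by interferon, was 5.82, 11.7 and 21.1 CPM as lowest, median and highest in withdrawal rats, 3.88, 4.51 and 7.87 CPM in chronic ethanol rats and 5.50, 6.77 and 11.9 CPM in control rats. Its log2 change in withdrawal against chronic ethanol was 1.27 ± 0.28 (edgeR adjusted p = 0.0861), and the 2 groups overlapped. Cxcl10, a chemokine induced by interferon, was 0.173 to 2.92 CPM in withdrawal and 0.111 to 0.36 CPM in chronic ethanol rats, with 2.21 ± 0.56 (edgeR adjusted p = 0.122), at levels near the 0.0666 to 0.104 CPM that 3 counts stand for. The highest Cxcl10, 2.92 CPM, was that of rat 13, followed by rat 17 at 2.25 CPM. C3, the central complement component, was 35.6 ± 13.8 CPM in chronic ethanol and 77.7 ± 15.1 CPM in control rats (SD, n = 6 each), a log2 change of -1.12 ± 0.26 (edgeR adjusted p = 0.281). DESeq2 called Gbp2, Cxcl10, Psmb8, Entpd2 and Mt3 in withdrawal against chronic ethanol and C3 and Slc27a1 in chronic ethanol against control. Gfap, whose protein is the usual mark of reactive astrocytes, had changes smaller than their errors in all 3 comparisons.

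**Figure D5:**
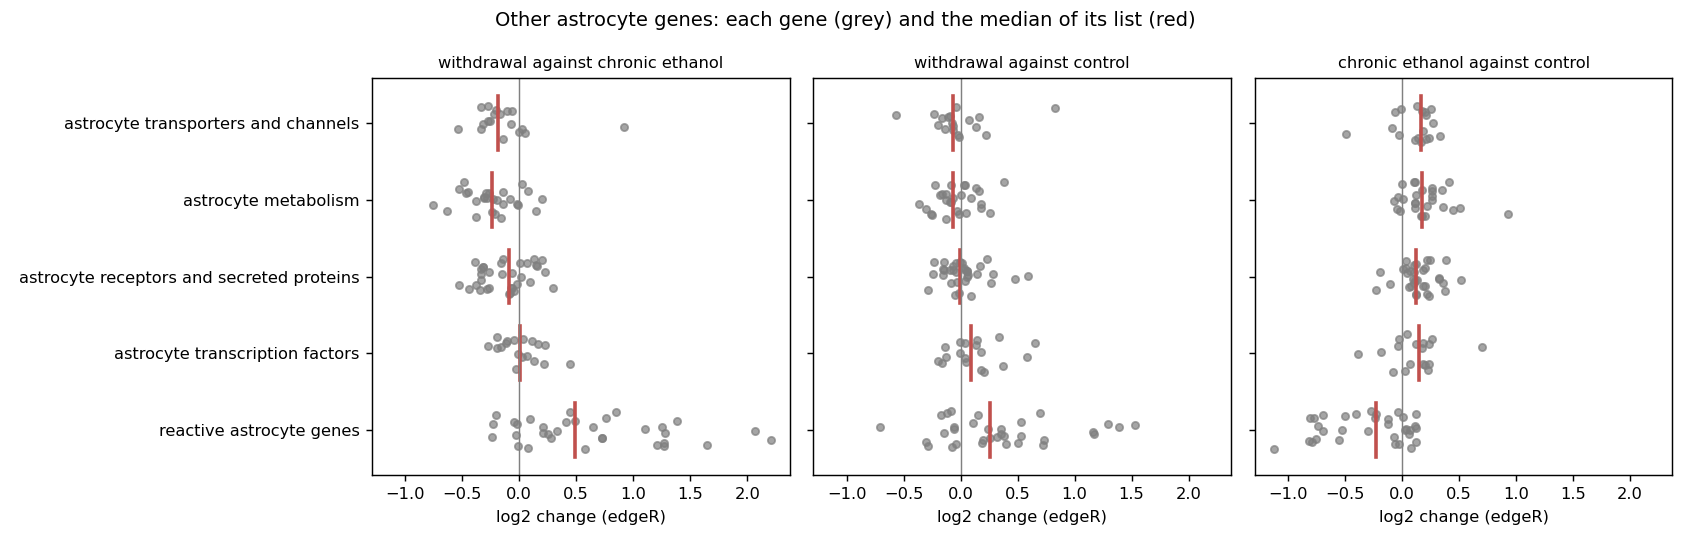
Log2 change (edgeR) of each of the 129 tested astrocyte genes outside the 10, by list (rows), for withdrawal against chronic ethanol, withdrawal against control and chronic ethanol against control, with the median of each list as a red line. Metabolism genes lie mostly left of 0 and reactive genes mostly right of 0 in the first panel, at medians of -0.24 and 0.49.

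Markers of other cells were summed for each library beside these results. Neuron markers summed to 7485 to 11122 CPM in withdrawal, 6649 to 8434 CPM in chronic ethanol and 7877 to 9862 CPM in control rats, dopamine neuron markers to 154 to 2287 CPM, 293 to 2798 CPM and 863 to 2728 CPM in those groups, and microglia markers to 236 to 406 CPM, 248 to 491 CPM and 314 to 399 CPM. Sums of endothelium and pericyte markers were 457 to 729 CPM, 576 to 741 CPM and 478 to 699.7 CPM in the same order. The groups overlapped for each of these. Red blood cell markers, at 93.5 to 175 CPM in withdrawal, 53.0 to 237 CPM in chronic ethanol and 186 to 527 CPM in control rats, did not overlap between withdrawal and control. The part of other cells or of blood in the levels of the 10 genes was not tested.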

How the data were processed

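Total RNA of the dissected VTA was made into stranded mRNA libraries and sequenced from both ends, per the labels' protocols. The deposited values are fragment counts, produced by the authors using featureCounts 1.5.0 and RefSeq genes of Rnor_6.0, with reverse-strand counting and without multi-mapping fragments or those matching several genes, per the file headers. STAR 2.5.2a, R 3.3.3 and limma are named in the submitters' processing notes. Symbols came from a RefSeq table of the GRCr8 assembly and were found for 29322 of 38445 genes. Genes kept by filterByExpr (17637) went into the quasi-likelihood test of edgeR 4.0.16 (TMM factors, two-sided, R 4.3.3) over all 18 libraries, with Benjamini-Hochberg adjustment over all genes tested and a threshold of 0.05. The SE of a log2 change is its size divided by the square root of F. Log2 CPM used a prior count of 2. A count of 3, the upper 95% limit for a count of 0, stood for 0.0666 to 0.104 CPM. This covers counting error only, since the sources name no molecular identifiers. DESeq2 1.42.0, limma-voom 3.58.1, RLE factors, other filters, a robust fit, fits of 2 groups, the first index as a term and leaving out rats were the alternatives. With the index as a term, withdrawal rats 17 and 18 take no part, and chronic ethanol rats 7 and 8 alone link to control.

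The 10 genes, the lists and the tests were chosen with earlier results of these data known. Beside the 10, the text names, of each list, up to 4 called genes with the lowest p or else the 2 tested genes with the lowest p in a comparison, all Ndrg and Nkain genes, the 5 genes most like Ndrg2 and Nkain4, and marks of libraries that stand apart. Some genes that this rule names are not reported here. Genes called only by DESeq2 were named after their values were seen. The list symbols Slc9a3r1, Iigp1 and the marker Ccdc153 matched no gene. The methods were tested on simulated data.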

Additional observations from a re-analysis of the deposited data

How the results depend on the processing

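The counts of genes called and the medians were computed again under 9 other settings and without each of the 18 rats in turn. By DESeq2, 3 of the 10 genes and 5 other astrocyte genes were called in withdrawal against chronic ethanol, beside 1.79% of all genes. In chronic ethanol against control DESeq2 called 2 other astrocyte genes, beside 0.269% of all genes. In both comparisons edgeR called 0 genes. Leaving out 1 rat gave 0 to 2 of the 10 genes and 0 to 1 other astrocyte genes in withdrawal against chronic ethanol: Nkain4 was called by edgeR without chronic ethanol rat 11 or without withdrawal rat 13, 15 or 18, Ndrg2 without withdrawal rat 13, and Gbp2 without withdrawal rat 18. The shares of all genes called in these fits were 0.0675% without rat 11, 0.124% without rat 13, 0.0112% without rat 15 and 0.135% without rat 18. The median log2 change of the 10 genes ran from -0.34 to -0.17 in withdrawal against chronic ethanol, from -0.34 to -0.13 in withdrawal against control and from 0.11 to 0.21 in chronic ethanol against control when 1 rat was left out, and in withdrawal against control it was 0.018 without rats 5, 8, 13 and 17. With the first index as a term, the log2 change in withdrawal against chronic ethanol was -0.60 for Ndrg2 and -0.73 for Nkain4. The cause of these shifts was not tested. No paired analysis was possible because the rats are numbered 1 to 18 with no number shared between groups. With 6 rats a group and a Gfap SD of 1.07 on the log2 scale, changes of the size seen for Gfap lie within their error. Leaving out 1 rat moved Aldh1l1, Aqp4 and Gfap by more than the other 7 genes in each comparison, with log2 changes in chronic ethanol against control of -0.22 to 0.04, -0.30 to 0.03 and -0.79 to -0.0097.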

Other observations

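Levels of further astrocyte genes are given by group and by rat. Slc1a2, the main glutamate transporter of forebrain astrocytes, had lowest, median and highest levels of 14.0, 27.2 and 48.6 CPM in withdrawal rats, 11.5, 15.5 and 20.8 CPM in chronic ethanol rats and 11.8, 15.1 and 23.5 CPM in control rats. Slc1a3, the other glutamate transporter of astrocytes, was 352 to 721 CPM in withdrawal, 622 to 718 CPM in chronic ethanol and 549 to 673 CPM in control rats. Per length, Slc1a2 averaged 44.9, 23.9 and 25.9 TPM and Slc1a3 384, 439.9 and 415 TPM in withdrawal, chronic ethanol and control rats. Both CPM and TPM depend on the exons annotated for a gene. Whether the annotation holds the full Slc1a2 transcript was not tested, so no ranking of Slc1a2 against Slc1a3 is drawn from these values. Withdrawal rats 13 and 14 had the highest Slc1a2, at 45.1 and 48.6 CPM, and rats 16 and 18 lay within the range of the other groups. The log2 change of Slc1a2 in withdrawal against chronic ethanol was 0.92 ± 0.28 (SE), with an edgeR adjusted p of 0.166.

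Htra1, a secreted protease, was 191 ± 61.5 CPM in withdrawal, 182 ± 23.9 CPM in chronic ethanol and 127 ± 16.1 CPM in control rats (SD, n = 6 each), with log2 changes of 0.59 ± 0.17 for withdrawal and 0.52 ± 0.17 for chronic ethanol against control (edgeR adjusted p = 0.349 and 0.679). Withdrawal rats 17 and 18, alone in their first index, had 273 and 254 CPM of Htra1. Withdrawal rats 13 to 16 had 115 to 190 CPM, and control rats 110 to 148 CPM. Elovl2, an elongase of polyunsaturated fatty acids, was 107 ± 20.2 CPM in withdrawal, 93.2 ± 15.2 CPM in chronic ethanol and 82.4 ± 7.97 CPM in control rats, with 0.38 ± 0.12 for withdrawal against control (edgeR adjusted p = 0.401). Withdrawal rats 17 and 13 had the most Elovl2, at 141 and 119 CPM, and the other withdrawal rats had 86.1 to 107 CPM. Itih3, a hyaluronan-binding serum and astrocyte protein, was 708 ± 126 CPM in withdrawal, 896 ± 91.5 CPM in chronic ethanol and 860.3 ± 68.1 CPM in control rats, with -0.34 ± 0.11 for withdrawal against chronic ethanol (edgeR adjusted p = 0.175). Rat 13 had the lowest Itih3, at 505 CPM, and the other withdrawal rats had 664 to 880 CPM. Gstm1, a glutathione transferase, was 81.9 ± 8.72 CPM in withdrawal, 101 ± 9.25 CPM in chronic ethanol and 79.1 ± 12.5 CPM in control rats, with 0.36 ± 0.10 for chronic ethanol against control (edgeR adjusted p = 0.42). None of Htra1, Elovl2, Itih3 and Gstm1 passed the edgeR test in a comparison named here.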
